A study of Mus musculus with 8 samples.

Results

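The D cyclins (Ccnd1, Ccnd2 and Ccnd3), the kinases Cdk4, Cdk6 and Cdk2, the E2F factors E2f1, E2f2 and E2f4, and Myc were followed across 4 groups of cultured mouse erythroid progenitors. These 10 genes were chosen with earlier results of these data known, and they were found as the non-control spots carrying those gene names. All 10 were present, on 13 of 38988 usable probes, and all 10 were among the 19128 genes tested. A gene was represented by its brightest probe.

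The cells were C57BL/6 erythroid progenitors of E14.5 fetal liver, depleted of cells bearing lineage markers, Sca-1, CD16/32, CD41 or CD34, and then sorted as c-kit positive with the lowest CD71. All groups had been infected with a virus and cultured for 3 days. Group 1 was control virus without DEX, a glucocorticoid according to the title of the series, group 2 control virus with DEX, group 3 a virus encoding shRNA1 with DEX, and group 4 a virus encoding shRNA2 with DEX. Both hairpins target an RNA-binding protein that the labels leave unnamed and that is Zfp36l2 in the published study of this design. Both hairpin groups also received DEX, so the hairpins were not measured without it. Each group had 2 arrays, 1 on each of 2 slides, and the replicate number equals the slide. The labels do not say that replicates were separate cultures or animals, so the spread behind every p-value here could be technical.

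D cyclins are the growth-factor-responsive partners of Cdk4 and Cdk6. The complexes phosphorylate the retinoblastoma family, which releases E2F factors and lets cells enter S phase, where cyclin E with Cdk2 continues the process. E2f1 and E2f2 are activators of replication genes, E2f4 acts mainly as a repressor bound to pocket proteins, and Myc drives growth and raises several G1 genes. In red cell precursors Ccnd3 helps set the number of divisions before terminal maturation, E2f2 is an erythroid-enriched E2F, and Myc falls as the cells mature.

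Levels are log2 processed signals minus the 75th percentile of their array, and differences are on the log2 scale with the standard error (SE) of a limma fit over all 8 arrays. A gene counts as called at a Benjamini-Hochberg adjusted p below 0.05 over all genes tested. Across the series, the 75th percentile signal was 476 to 1000 on slide 1 and 1440 to 2060 on slide 2, between 59 and 62.6% of probes were well above background, and the arrays of a group correlated at 0.934 to 0.98 over genes. Zfp36l2 differed by 1.82 with DEX, -1.48 with shRNA1 and -1.58 with shRNA2 (limma adjusted p = 0.373, 0.923 and 1, and in the slide-blocked fit 0.0721, 0.229 and 0.751). All 14 measured erythroid marker names, Klf1, Epor, Gata1 and Alas2 among them and Epb42 counted also under its older name Epb4.2, were well above background on all 8 arrays. The median gene differed by -0.08 with DEX, 0.18 with shRNA1 and 0.01 with shRNA2, and after scaling to the median of each array by 0.02, -0.22 and -0.23.

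The largest differences among the 10 genes were in the D cyclins and E2f2. Ccnd3 and E2f2 lay lower with DEX and higher with shRNA1, and Ccnd2 lay lower with shRNA1 and not with shRNA2. In both hairpin groups Cdk4, Cdk2, E2f1, E2f4 and Myc had wider gaps between slides than the span of their group means. No member was called in any comparison, by the fit without a block or by the fit with the slide as a block. The share of all genes called without a block was 0% in each of the 4 comparisons. With the block it was 0.23% for DEX (44 genes), 0% for shRNA1, 0.00523% for shRNA2 (1 gene) and 0% for shRNA1 minus shRNA2. At an unadjusted p below 0.05 without a block, limma marked 0 members for DEX (3.11% of all genes), 2 for shRNA1 (2.09%), 0 for shRNA2 (1.25%) and 1 for shRNA1 minus shRNA2 (2.38%). In the slide-blocked fit the same threshold marked 2 members for DEX (9.55% of all genes), 4 for shRNA1 (17.8%), 1 for shRNA2 (5.69%) and 4 for shRNA1 minus shRNA2 (11%). With 2 arrays against 2, an exact permutation test of 1 gene cannot go below p = 0.333, so it was not used.

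**Figure D1:**
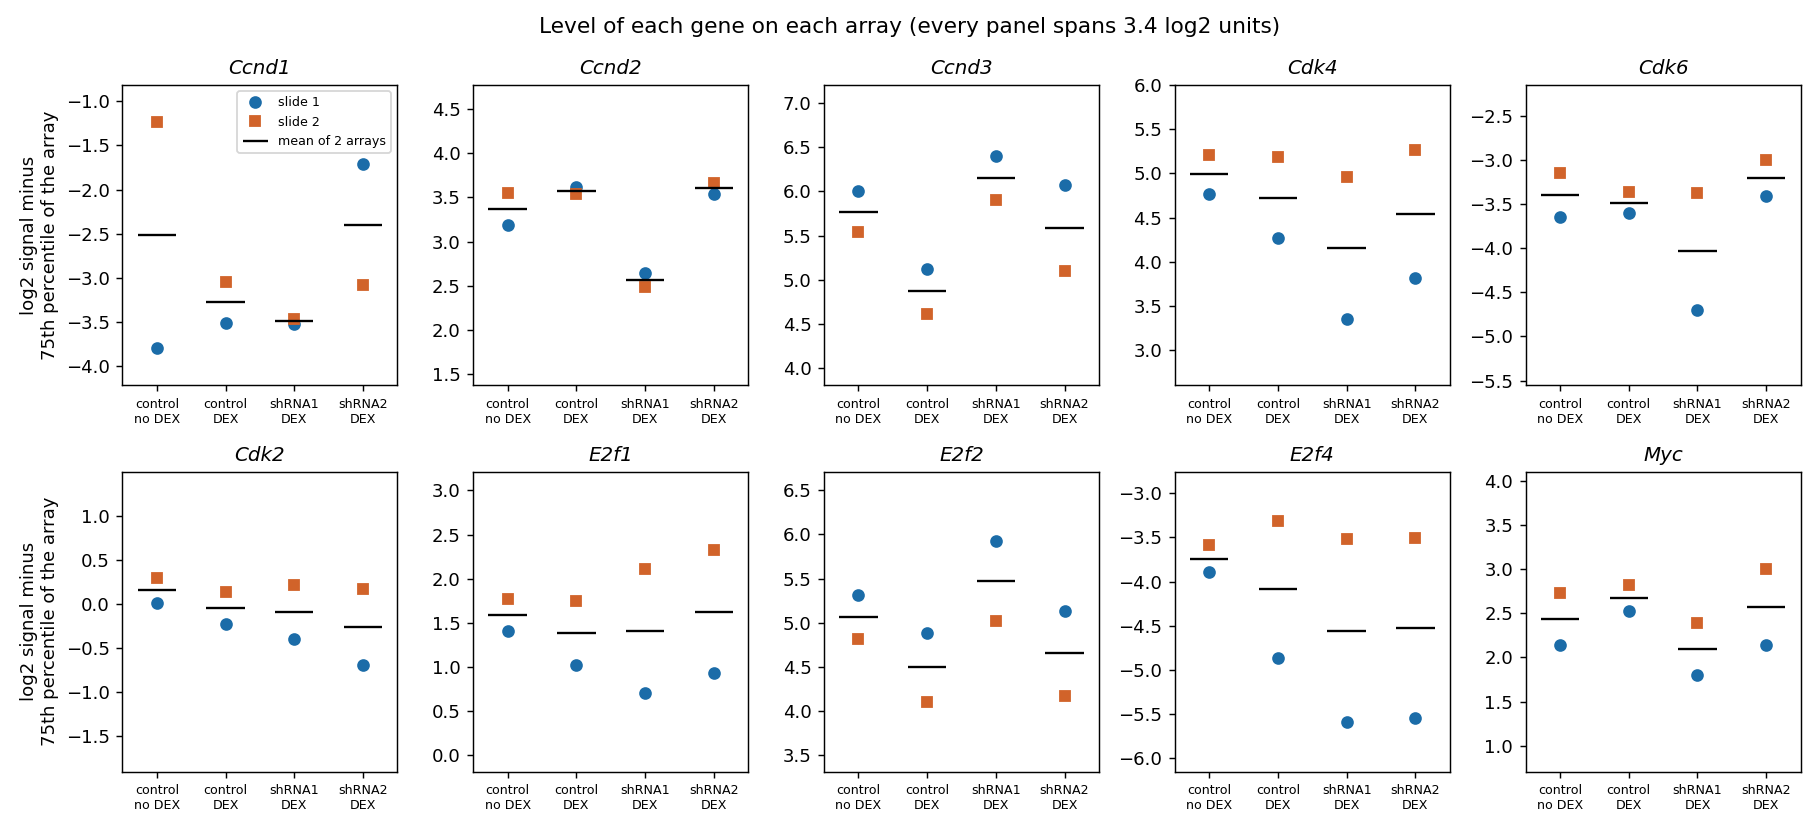
Level of each of the 10 genes on each of the 8 arrays, as log2 signal minus the 75th percentile of the array, by group. Circles are slide 1, squares slide 2 and bars the mean of 2 arrays; each panel has its own axis of equal span. Ccnd2 sits at 2.48 and 2.64 with shRNA1 and between 3.19 and 3.67 on the other 6 arrays, and Cdk4 is lower on slide 1 in every group.

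Ccnd2, the D cyclin with the clearest separation of a group, was measured by 1 probe on chromosome 6 (chr6:127098696-127098755, minus strand, build mm9). Its 60 bases are shown because the gene's whole result rests on them:
Ccnd2 probe: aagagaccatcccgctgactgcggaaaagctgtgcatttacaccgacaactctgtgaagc
The level was 3.19 and 3.55 without DEX, 3.62 and 3.54 in control cells with DEX, 2.64 and 2.48 with shRNA1, and 3.54 and 3.67 with shRNA2. Both shRNA1 arrays lay below all 6 other arrays, while the other 3 groups overlapped one another.

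With shRNA1 the difference of Ccnd2 from control cells with DEX was -1.01 (SE 0.29; slides -0.98 and -1.05), a 2.02-fold lower level. It stayed between -1.09 and -0.93 with each array left out in turn, and was -1.41 after scaling to the median of each array. With shRNA2 it was 0.03 (SE 0.29; slides -0.08 and 0.13), with a 95% interval of -0.67 to 0.72. The difference between the hairpins was itself -1.04 (SE 0.29), with a 95% interval of -1.73 to -0.34. None of these passed in limma over all genes (adjusted p = 0.923, 1 and 1, or 0.229, 0.974 and 0.284 in the slide-blocked fit). DEX moved Ccnd2 by 0.21 (SE 0.29; slides 0.43 and -0.01), less than its SE.

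Ccnd3 was measured by 2 probes on chromosome 17 (chr17:47736267-47736326 and chr17:47736579-47736638, plus strand, mm9), and the second was the brighter. On it, control cells without DEX were at 6.0 and 5.54, those with DEX at 5.13 and 4.61, shRNA1 cells at 6.4 and 5.9, and shRNA2 cells at 6.07 and 5.1. Control cells with DEX were lowest on both slides, and slide 1 lay above slide 2 in every group.

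The difference of Ccnd3 with DEX was -0.90 (SE 0.45; slides -0.88 and -0.92) and with shRNA1 1.28 (SE 0.45; slides 1.28 and 1.29), a 2.43-fold higher level. In both comparisons the arrays of the 2 groups did not overlap. With shRNA2 it was 0.72 (SE 0.45; slides 0.95 and 0.49), and the groups overlapped. The limma adjusted p = 1, 0.923 and 1, or 0.206, 0.229 and 0.78 in the slide-blocked fit. The hairpins differed by 0.57 (SE 0.45; slides 0.33 and 0.80), with a 95% interval for this gene alone of -0.53 to 1.66, or of 0.03 to 1.10 in the slide-blocked fit, where the limma adjusted p = 0.432. The first probe gave -0.87, 1.0 and 0.68 for DEX, shRNA1 and shRNA2, with the same signs and on both slides. Between the hairpins the first probe gave 0.32, with -0.07 on slide 1 and 0.71 on slide 2. On the brighter probe, the shRNA2 value fell to 0.23 without shRNA2 replicate 1.

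Ccnd1, the D cyclin of many adherent cell types, was dim (signals of 41.6 to 821; chr7:152116202-152116261, minus strand, mm9) and uneven between replicates. Its level was -3.80 and -1.23 without DEX, -3.51 and -3.04 with DEX, -3.52 and -3.46 with shRNA1, and -1.71 and -3.08 with shRNA2. The 2 highest arrays, control without DEX replicate 2 and shRNA2 replicate 1, belonged to different groups, and their partners on the other slide were at -3.80 and -3.08.

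By the median over 12 measured of 18 marker names, the same arrays were highest in monocyte and macrophage markers. Their medians were -1.85 and -1.75, against -4.79 to -3.31 on the other 6. These arrays were also highest in neutrophil and granulocyte markers (17 measured of 19 names), at medians of 1.05 and 2.94 against -1.62 to 0.67. The log2 summed level of the monocyte list was 2.4 and 3.57 without DEX, 1.99 and 1.55 with DEX, 3.66 and 2.74 with shRNA1, and 5.22 and 2.36 with shRNA2. For the neutrophil list it was 5.37 and 7.52, 5.26 and 6.07, 7.08 and 7.21, and 9.15 and 6.53 in the same order. In the summed monocyte level, which the brightest markers set, shRNA1 replicate 1 (3.66) lay above control without DEX replicate 2 (3.57). Ccnd1 on shRNA1 replicate 1 was at -3.52. At least 11 of the 12 monocyte markers and 16 of the 17 neutrophil markers were above background on every array. The part of these cells in the Ccnd1 values was not tested, and in bulk RNA a change in the share of a cell type and a change of RNA per cell cannot be told apart.

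The resulting differences of Ccnd1 had large errors. With DEX the value was -0.76 (SE 0.88), 0.29 on slide 1 and -1.82 on slide 2. It was -2.05 without control without DEX replicate 1 and 0.52 without replicate 2. With shRNA2 it was 0.88 (SE 0.88), and 0.19 without shRNA2 replicate 1. With normexp background correction the DEX and shRNA2 values were -0.19 and 0.16, and with normexp after leaving out spots with a background outlier mark -0.55 and 0.53. With shRNA1 it was -0.22 (SE 0.88), and in limma none of the 3 passed (adjusted p = 1, 1 and 0.951).

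Cdk4, the main D cyclin kinase of dividing progenitors, had 3 probes on chromosome 10, and the brightest covers chr10:126504279-126504338 (plus strand, mm9). Its level was 4.77 on slide 1 and 5.21 on slide 2 without DEX, 4.26 and 5.18 with DEX, 3.35 and 4.96 with shRNA1, and 3.81 and 5.26 with shRNA2. On slide 2 the 4 groups spanned 4.96 to 5.26, and on slide 1 3.35 to 4.77. Groups overlapped in every comparison.

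The Cdk4 difference was -0.27 with DEX, -0.57 with shRNA1 and -0.19 with shRNA2 (SE 0.73 each). On slide 1 these were -0.50, -0.92 and -0.45, and on slide 2 -0.03, -0.22 and 0.08. For shRNA1 the value turned to 0.24 without shRNA1 replicate 1, and was -1.38 without replicate 2. The other 2 probes gave -0.70 and -0.84 for shRNA1, again larger on slide 1 (-1.16 and -1.23) than on slide 2 (-0.24 and -0.45). Limma did not call it (adjusted p = 1, 0.923 and 1).

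The promoters of the D cyclin kinases are shown because Myc binds the E-box CACGTG and Cdk4 is a textbook target of Myc. They are the 250 bases before the RefSeq start (build GRCm38.p6, plus strand), with each CACGTG in capitals; the word is its own reverse complement, so both strands are covered.
Cdk4 (chr10:127063285-127063534): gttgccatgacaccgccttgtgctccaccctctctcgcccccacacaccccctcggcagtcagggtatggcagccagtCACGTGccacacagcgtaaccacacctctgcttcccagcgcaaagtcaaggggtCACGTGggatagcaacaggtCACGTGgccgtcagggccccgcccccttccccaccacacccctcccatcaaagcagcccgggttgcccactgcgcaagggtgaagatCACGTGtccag
Cdk6 (chr5:3343643-3343892): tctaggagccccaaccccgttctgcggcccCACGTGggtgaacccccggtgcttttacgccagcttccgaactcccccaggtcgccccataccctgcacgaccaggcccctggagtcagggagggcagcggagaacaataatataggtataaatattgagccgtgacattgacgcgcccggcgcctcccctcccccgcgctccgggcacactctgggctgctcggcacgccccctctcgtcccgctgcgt
Cdk4 held 4 such words and Cdk6 1, and 6.02% of 32851 RefSeq promoters of this length held at least 1. RefSeq promoters matched 6 of the 10 genes, with 8 starts, and the word was in 2 of the 8. An E2F word (TTTCGCGC, TTTGGCGC, TTTCCCGC or TTTGCCGC, either strand) was in 1 of the 8, that of Cdk2, and in 1.86% of all. The GATA words AGATAA and TGATAA, found in 16.6% of all, were in none of the 8, nor was the STAT word TTCNNNGAA, found in 7.02%. The KLF word CCACACCC was in that of Cdk4 and in 3.2% of all. These are matches of letters within this window. The E2f1 window and the downstream of the E2f2 windows appear to hold coding sequence. The main E2f1 promoter may therefore not be among the 8, and the absence of a word there says nothing about it.

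Cdk6, the other D cyclin kinase and one associated with early blood progenitors, was near the dim end (signals of 18.4 to 217; chr5:3522106-3522165, plus strand, mm9). The level was -3.65 and -3.15 without DEX, -3.60 and -3.36 with DEX, -4.70 and -3.37 with shRNA1, and -3.41 and -3.0 with shRNA2. Only shRNA1 replicate 1 stood apart, and it alone set the shRNA1 value. That value was -0.55 (SE 0.50), with -1.09 on slide 1 and -0.01 on slide 2, and 0.11 without shRNA1 replicate 1. The differences with DEX and shRNA2 were -0.09 and 0.27 (SE 0.50 each).

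Cdk2, the partner of cyclins E and A, had the narrowest span among the kinases (chr10:128135658-128135717, minus strand, mm9). Levels were 0.01 and 0.29 without DEX, -0.23 and 0.13 with DEX, -0.40 and 0.21 with shRNA1, and -0.70 and 0.17 with shRNA2. Differences were -0.20 with DEX, -0.04 with shRNA1 and -0.22 with shRNA2 (SE 0.42 each), all smaller than their error. The 95% interval for shRNA1 was -1.06 to 0.97.

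**Figure D2:**
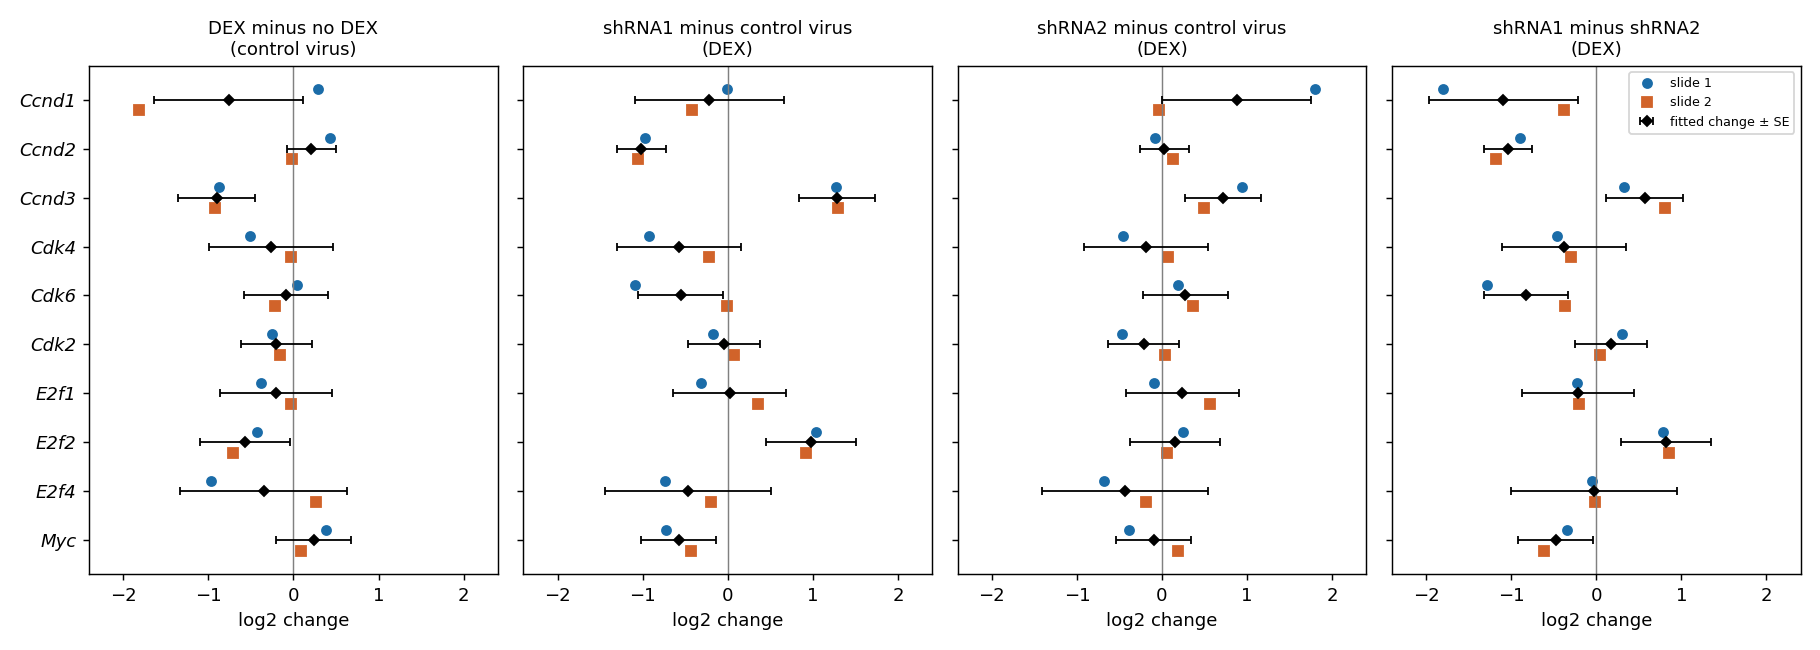
Log2 difference of each gene in the 4 comparisons. Diamonds with bars are the fitted difference ± SE, circles the difference on slide 1 and squares that on slide 2. For shRNA1 the 2 slides are close together for Ccnd2 (-0.98 and -1.05), Ccnd3 (1.28 and 1.29) and E2f2 (1.03 and 0.92), and apart for Cdk6 (-1.09 and -0.01).

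E2f2 (chr4:135750562-135750621, plus strand, mm9) was bright, with signals of 18400 to 54200. Its level was 5.32 and 4.82 without DEX, 4.89 and 4.10 with DEX, 5.92 and 5.02 with shRNA1, and 5.14 and 4.17 with shRNA2. On each slide the shRNA1 array was highest and the control array with DEX lowest, and slide 1 lay above slide 2 throughout.

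The E2f2 difference with shRNA1 was 0.98 (SE 0.53; slides 1.03 and 0.92), without overlap between the arrays. With DEX it was -0.57 (SE 0.53; slides -0.43 and -0.71) and with shRNA2 0.16 (SE 0.53; slides 0.25 and 0.06). The hairpins differed by 0.82 (SE 0.53; slides 0.78 and 0.86; 95% interval -0.46 to 2.10, or 0.31 to 1.33 in the slide-blocked fit). The limma adjusted p = 0.923 for shRNA1 and 1 for the other 3, and in the slide-blocked fit 0.229 for shRNA1, 0.444 for DEX, 0.835 for shRNA2 and 0.328 between the hairpins. For shRNA1 the value ran from 0.53 without shRNA1 replicate 1 to 1.43 without replicate 2. The DEX value was -0.18 without control with DEX replicate 2 and -0.96 without replicate 1.

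E2f1 (chr2:154385798-154385857, minus strand, mm9) did not separate the groups. Its level was 1.41 and 1.77 without DEX, 1.02 and 1.75 with DEX, 0.70 and 2.11 with shRNA1, and 0.93 and 2.32 with shRNA2. On slide 1 both hairpins lay below control cells with DEX, and on slide 2 both lay above. The differences were -0.20 with DEX, 0.02 with shRNA1 and 0.24 with shRNA2 (SE 0.66 each). For shRNA1 the sign turned after scaling to the median of each array (-0.38).

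E2f4 (chr8:107829156-107829215, plus strand, mm9) was the dimmest member, with signals of 9.85 to 207, and was not well above background on shRNA1 replicate 1 and shRNA2 replicate 1. Its level on the other arrays was -3.90 and -3.58 without DEX, -4.86 and -3.31 with DEX, -3.52 with shRNA1 and -3.51 with shRNA2. The measured values of the dim pair were -5.60 and -5.55. The differences were -0.35, -0.47 and -0.44 (SE 0.98 each) for DEX, shRNA1 and shRNA2, with 1 of 2 arrays measured above background in each hairpin group.

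Myc (chr15:61821417-61821476, plus strand, mm9) was lowest with shRNA1 on both slides. Its level was 2.14 and 2.73 without DEX, 2.52 and 2.82 with DEX, 1.80 and 2.39 with shRNA1, and 2.14 and 3.01 with shRNA2. The shRNA1 arrays lay below both control arrays with DEX. The difference was -0.58 (SE 0.44; slides -0.72 and -0.43) with shRNA1, -0.10 (slides -0.38 and 0.19) with shRNA2 and 0.24 (slides 0.38 and 0.09) with DEX. The limma adjusted p = 0.923, 1 and 1 in that order, or 0.27, 0.898 and 0.925 in the slide-blocked fit. The shRNA1 value ran from -0.87 without shRNA1 replicate 2 to -0.28 without replicate 1.

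Among the members as a set, 3 passed a 1.5-fold difference of one sign on each slide with shRNA1: Ccnd3 and E2f2 higher, where 10.1% of all genes did so, and Ccnd2 lower, where 2.93% did. With DEX 1 member, Ccnd3, was lower by that rule (5.12% of all genes) and 0 were higher (3.5%). With shRNA2 none was higher (2.03%) or lower (1.48%). Between the hairpins E2f2 was higher with shRNA1 (5.95%) and Ccnd2 lower (1.62%). The arrays of the 2 groups did not overlap for 1 member with DEX (26.9% of all genes), 4 with shRNA1 (25.6%), 0 with shRNA2 (15.5%) and 2 between the hairpins (16.9%), namely Ccnd1 and Ccnd2. The median difference over the 10 was -0.23 with DEX, -0.34 with shRNA1 and 0.09 with shRNA2, beside -0.08, 0.18 and 0.01 over all genes. The comparisons with DEX, shRNA1 and shRNA2 share the 2 control arrays with DEX, so values of opposite sign in DEX and shRNA1, as for Ccnd3 and E2f2, are not independent of one another.

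Relative to the median gene, the shRNA1 differences were 1.10 for Ccnd3, 0.80 for E2f2, -1.19 for Ccnd2, -0.76 for Myc, -0.75 for Cdk4 and -0.73 for Cdk6. In order of group means, only 1 step between neighbouring groups was free of overlapping arrays in any of the 10 genes, namely that from control without DEX to shRNA1 for Ccnd2, a gap of 0.80. For E2f1 all 4 group means lay within 0.24.

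**Figure D3:**
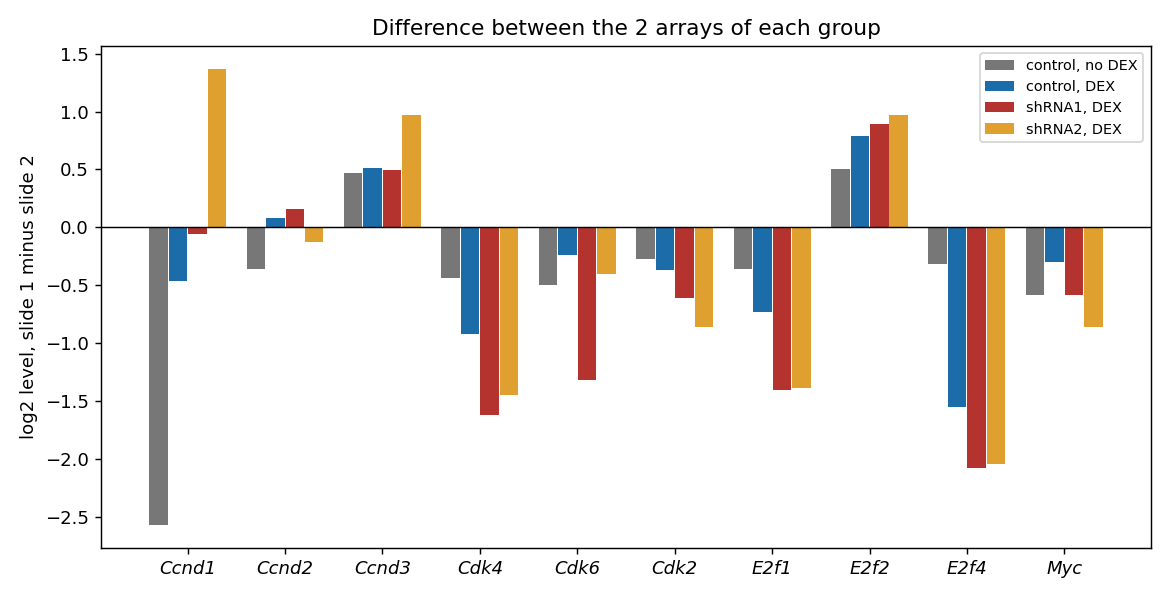
Level on slide 1 minus level on slide 2 for each gene in each group, on the log2 scale, 1 bar per group of 2 arrays. Cdk4, Cdk6, Cdk2, E2f1, E2f4 and Myc are below 0 in all 4 groups and Ccnd3 and E2f2 above 0, and the bar of Cdk4 goes from -0.44 in control without DEX to -1.62 with shRNA1.

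Most members differed between slides the same way in every group. Cdk4, Cdk6, Cdk2, E2f1, E2f4 and Myc were lower on slide 1 in all 4 groups, as were 26.5% of all genes, and Ccnd3 and E2f2 were higher on it in all 4, as were 39.5%. For E2f1 the gap was -0.36 without DEX, -0.73 with DEX, -1.41 with shRNA1 and -1.39 with shRNA2, and for Cdk2 it was -0.28, -0.37, -0.61 and -0.86. The gaps of Ccnd2 lay between -0.36 and 0.16. The 75th percentile signals of shRNA1 and shRNA2 replicate 1 were 476 and 522, the lowest of the 8 arrays. The part of signal strength in these gaps was not tested.

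Genes that E2F factors activate were examined next, as a fixed list of 26 replication genes, all of which were measured. None was called by limma in any comparison, with or without the slide as a block, and none passed the 1.5-fold rule on both slides. With DEX 25 of 26 were lower, with a median of -0.34 (slide 1 -0.52, slide 2 -0.11), where 61.6% of all genes were lower. The share of all genes that were lower was 37.9% with shRNA1 and 48.6% with shRNA2. With shRNA2 24 of 26 were lower (median -0.32; slides -0.68 and 0.01), and with shRNA1 20 of 26 (median -0.19; slides -0.47 and 0.11). The medians of all 3 comparisons were lower on slide 1 than on slide 2. Among the extremes with DEX were Tk1, thymidine kinase, at -0.79 (SE 1.01) and Mcm5, a helicase subunit, at -0.50 (SE 0.98), against Pola1, a DNA polymerase subunit, at 0.10 (SE 0.90). With shRNA1 Ung, which removes uracil from DNA, was at 0.51 (SE 0.28) and Rrm2 at 0.29 (SE 0.62), and Slbp, which binds histone mRNA, at -0.63 (SE 0.80) and Pola1 at -0.61 (SE 0.90).

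Of 28 partners of the G1 to S pathway, 26 were measured and none was called in either limma fit. With DEX 19 were lower (median -0.27), where 61.6% of all genes were lower. By 1.5-fold on both slides 3 were higher and 3 lower, where 3.5% and 5.12% of all genes were. The cyclin-dependent kinase inhibitors Cdkn1c and Cdkn2a were at 2.16 (SE 0.53, slides 2.30 and 2.02) and 1.78 (SE 1.23). Cdkn2c and Tfdp2, a partner with which E2F factors bind DNA, were at -1.09 (SE 0.46) and -0.89 (SE 0.29). With shRNA1 Tfdp2 was at 0.91 (SE 0.29; slides 1.07 and 0.74) and Cdkn1b at 0.92 (SE 1.0), while Skp2, which targets Cdkn1b for degradation, was at -0.97 (SE 1.04) and E2f5 at -0.71 (SE 1.23). With shRNA2 Cdkn1c was at -1.16 (SE 0.53; slides -1.94 and -0.37), Skp2 at -0.91 (SE 1.04), Cdkn2a at 0.53 (SE 1.23) and Cdkn1a at 0.44 (SE 0.61).

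Myc targets, 22 of 22 measured, had medians of -0.10 with DEX, -0.36 with shRNA1 and -0.18 with shRNA2, and none was called. Lower were 15 with DEX, where 61.6% of all genes were, and 18 with shRNA2, where 48.6% were. The medians on slides 1 and 2 were -0.24 and 0.09 with DEX and -0.58 and 0.13 with shRNA2. With shRNA1 15 were lower, where 37.9% of all genes were, and the median was -0.71 on slide 1 and 0.01 on slide 2. Rrs1, a ribosome assembly factor, was at -1.0 (SE 0.89) and the RNA helicase Ddx21 at -0.70 (SE 1.06), against Cad of pyrimidine synthesis at 0.30 (SE 0.30) and Ppan at 0.24 (SE 0.28). Of the 12 genes of the Myc network 9 were measured and none was called. With shRNA1 Mxd1 and Mxd3, which compete with Myc for Max, were at 1.26 (SE 1.41; slides 1.27 and 1.25) and 0.98 (SE 0.46; slides 0.77 and 1.20), and Mga and Max at -0.64 (SE 0.49) and -0.19 (SE 0.33). With DEX Mycn was at -2.15 (SE 1.06), Mxd3 at -1.15 (SE 0.46), Mxd4 at 0.52 (SE 0.82) and Mnt at 0.27 (SE 0.45). With shRNA2 Mycn was at 1.81 (SE 1.06), from 3.50 on slide 1 and 0.12 on slide 2.

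All 17 regulators of D cyclin levels were measured, with medians of -0.24 with DEX, 0.15 with shRNA1 and 0.04 with shRNA2, and none was called. With DEX Bcl6, a repressor of Ccnd2, was at -2.01 (SE 1.0; slides -2.03 and -1.99) and Foxo3, a maturation factor, at -0.74 (SE 0.59). Stat5a, which acts below the erythropoietin receptor, was at 0.60 (SE 0.31) and Myb, a progenitor factor, at 0.59 (SE 0.30). With shRNA1 Cryab and Notch1 were at 1.17 (SE 1.17) and 1.10 (SE 0.95), and Myb and Trim33 at -0.54 (SE 0.30) and -0.45 (SE 0.34). Between the hairpins Foxo3 was higher with shRNA1 by 0.97 (SE 0.59, slides 1.09 and 0.85) and Cryab by 0.91 (SE 1.17). Foxo1 and Myb were lower with shRNA1, at -0.67 (SE 0.37) and -0.43 (SE 0.30). The arrays did not overlap for Foxo3, Foxo1 and Myb, as for 16.9% of all genes.

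**Figure D4:**
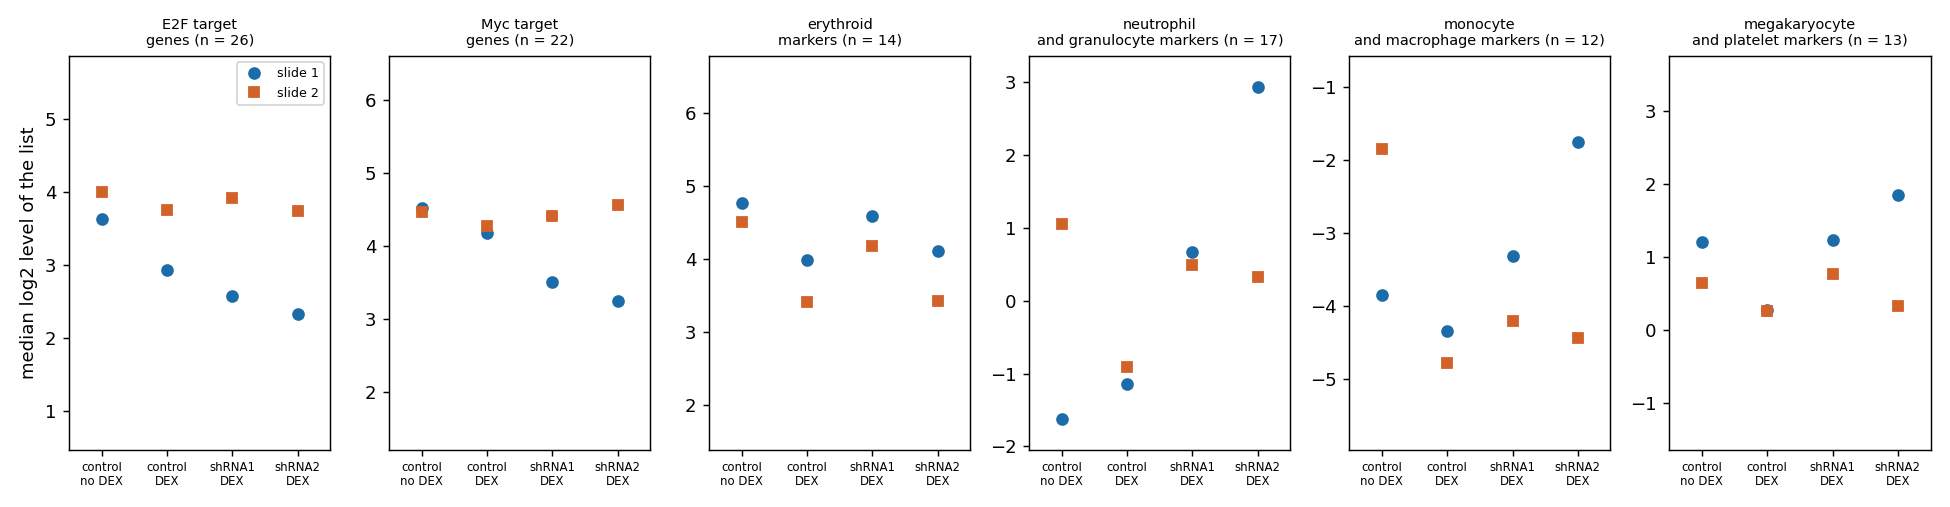
Median log2 level on each array of 6 fixed gene lists, by group, with circles for slide 1 and squares for slide 2; n is the number of measured genes. E2F targets range from 3.74 to 4.0 on slide 2 and from 2.33 to 3.62 on slide 1, and neutrophil markers reach 2.94 on shRNA2 replicate 1.

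Erythroid markers had the signs of Ccnd3 and E2f2 with DEX and with shRNA1, and the opposite sign to Ccnd2 with shRNA1. With DEX the Ccnd2 value of 0.21 (SE 0.29) was within its error. The erythroid medians over the 14 measured were 4.76 and 4.51 without DEX and 3.98 and 3.41 with DEX, on slides 1 and 2. They were 4.59 and 4.18 with shRNA1, and 4.11 and 3.43 with shRNA2. The log2 summed level was 10.3 and 9.45, 9.79 and 8.86, 10.8 and 9.50, and 10.3 and 8.89 in the same order. All 14 were lower with DEX and all 14 higher with shRNA1, as Ccnd3 and E2f2 were. With shRNA2 7 were higher and 7 lower. Over all genes, 61.6% were lower with DEX, 62.1% higher with shRNA1 and 51.4% higher with shRNA2. Most neutrophil, monocyte and megakaryocyte markers had the same signs as the erythroid ones with DEX and shRNA1. With DEX 14 of 17 neutrophil, 11 of 12 monocyte and 10 of 13 megakaryocyte markers were lower (medians -0.74, -1.33 and -1.02). These DEX medians were -0.04, -0.51 and -0.70 on slide 1 and -1.61, -2.17 and -1.58 on slide 2. With shRNA1 17, 12 and 12 of them were higher (medians 1.62, 0.93 and 1.02). By slide the shRNA1 medians were 1.88, 1.24 and 1.47 on slide 1 and 1.41, 0.75 and 0.50 on slide 2. With shRNA2 17, 11 and 12 were higher (medians 2.42, 2.10 and 1.18). The shRNA2 medians were 4.18, 3.57 and 2.85 on slide 1 and only 0.87, 0.47 and -0.08 on slide 2. Of 7 mast cell and 6 hepatocyte markers, 2 and 4 were higher with DEX, 4 and 3 with shRNA1, and 4 and 3 with shRNA2. The part of maturation stage or of other cells in the values of Ccnd2, Ccnd3, E2f2 and Myc was not tested.

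Likeness over the 8 arrays was measured for the member with the widest span of group means in each role, among all genes tested with a symbol. For Ccnd3 (span 1.28) the closest patterns were those of H3c8 (Pearson correlation 0.996), Obp1a (0.972) and Arhgap33 (0.961). For Cdk4 (span 0.84) they were Fam136a (0.999), Rmi2 (0.998) and Elavl1 (0.997), for E2f2 (span 0.98) Zc3h6 (0.992), Kel (0.990), a red cell blood group gene, and Wac (0.990), and for Myc (span 0.58) Foxj3 (0.987), Dr1 (0.980) and Ube2g1 (0.975). Correlations above 0.9 were reached with 185 other genes for Ccnd3, 2867 for Cdk4, 1048 for E2f2 and 501 for Myc. Among the members, Ccnd3 and E2f2 correlated at 0.914, E2f2 and Myc at -0.95, and Cdk4 with E2f4, E2f1 and Cdk2 at 0.974, 0.910 and 0.902. The E2f4 correlation includes shRNA1 replicate 1 and shRNA2 replicate 1, where E2f4 was not well above background. All these correlations are descriptions over 8 arrays that share slides and groups.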

How the data were processed

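RNA of 8 samples was hybridised to 1-colour Agilent arrays. Per the file headers, the authors quantified spots with Agilent Feature Extraction 10.1.1.1, and the intensity used is the deposited processed signal on a linear scale, with detrending and surrogate values. A log2 value table deposited by the authors served as an alternative; how it was normalized is not given in the sources used. Control spots (1377 of 44397) and spots with an outlier mark were left out, spots of a probe averaged, and log2 signals scaled to the 75th percentile of the array. Tested were probes that stood well above background in 2 of 2 arrays of some group. Names came from accessions matched to RefSeq (26581 probes) or from the files; no annotation of build mm9 was used, so exons are not stated.

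Differences come from limma 3.58.1, lmFit followed by eBayes (R 4.3.3; plots with matplotlib 3.10.9) in 1 fit over 4 groups. Replicate numbers equal slides, so the slide is also given as a block; differences between slides correlated at 0.431 to 0.859 between groups. The fit was also run on simulated data, with an outcome that is not reported here. Named were all 10 members, in each fixed list described the 2 highest and 2 lowest genes (1 is not reported here), and the 3 genes most like 1 member of each role. Members and lists were chosen with earlier results of these data known. The number of arrays limits the precision.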

Additional observations from a re-analysis of the deposited data

How the results depend on the processing

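No member was called under any of the 9 other settings, so the count stayed at 0 in each of the 4 comparisons (limma). Apart from the slide block, these settings called no gene of the whole table either. The count of 0 is therefore not a result about the members. The replicate block, which is the slide, changed no member's call; it raised the count over all genes from 0 to 44 for DEX and from 0 to 1 for shRNA2. Of 352 values under other settings 148 were identical to the value given, and of the 204 that differed 5 had another sign, all after scaling to the median of each array: Cdk6 with DEX (0.01), E2f1 with shRNA1 (-0.38), and Ccnd2 (-0.22), E2f1 (-0.01) and E2f2 (-0.09) with shRNA2. With 1 array left out, 160 of 320 values were identical because the array lay outside the comparison, and 37 of the other 160 had another sign. For 36 of these the value given was within its SE; the exception was Cdk6 with shRNA1, which ran from -1.21 to 0.11. Ccnd2, Ccnd3, E2f2 and Myc with shRNA1 kept their sign in each setting that altered the value (9 or 10 of 17). Cdk6 had no value with normexp without marked spots, and E2f4 none with the filter on all arrays. Dim signal limits Ccnd1, Cdk6 and E2f4: with normexp the shRNA1 values of Cdk6 and E2f4 were -0.18 and -0.07, and with normexp without marked spots that of E2f4 was -0.30.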
